A study of Homo sapiens with 12 samples.

Results

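The 31 genes described here make up cholesterol synthesis, sterol uptake and esterification, and the SREBP system that controls them. They were chosen for their known roles from 57500 genes counted in HepG2, a human hepatocellular carcinoma cell line, with earlier results of these data known, and no measured value entered the rule. They comprise 8 genes of the mevalonate part of the pathway, 12 of the squalene and sterol part, 5 of SREBP control, 4 for the liver X receptors, uptake and sterol transport, and 2 for esterification. RNA was sequenced from 12 libraries in 3 groups of 4 independent replicates. The WT group was wild-type HepG2. The shTST group carried a lentiviral short hairpin RNA against TST, which encodes thiosulfate sulfurtransferase (rhodanese), a mitochondrial enzyme that turns cyanide into thiocyanate. The overTST group carried a codon-optimised TST sequence under the constitutive CMV promoter of a lentiviral vector with a blasticidin resistance gene. All groups were grown in the same glycine-containing medium, and the labels name neither an empty-vector nor a scrambled-hairpin control, so lentiviral transduction and the change in TST cannot be told apart.

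Cholesterol is built from acetyl-CoA through mevalonate, isoprenoid diphosphates and squalene, and is then shaped from lanosterol by a series of demethylases, reductases and isomerases. When sterols run low in the endoplasmic reticulum, SCAP escorts the SREBP precursors to the Golgi, where proteases release their transcription factor domain, and when sterols are plentiful the INSIG proteins hold SCAP back. Most genes of the pathway are SREBP targets with nearby binding sites for the CCAAT factor NF-Y, and the liver X receptors act in the opposite direction by sensing oxysterols. The liver is a main site of cholesterol synthesis and esterification.

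The libraries held 28866175 to 45120508 counts in WT, 27527854 to 33865386 in shTST and 22911380 to 27414142 in overTST. Values per library are CPM, counts scaled to the size of the library after TMM normalisation, which can be compared between libraries but not between genes of different length. TST itself was at 47.2, 47.5, 52.8 and 48.5 CPM in WT and at 33.0, 33.6, 36.6 and 33.5 CPM in shTST, without overlap (log2 fold change of -0.52, two-sided exact permutation p = 0.0286, the smallest that 4 against 4 libraries allow). In overTST it was at 51.8, 56.0, 61.6 and 62.1 CPM, overlapping with WT (log2 fold change of 0.24, exact permutation p = 0.0571, adjusted p = 0.00384 in edgeR's quasi-likelihood test), and reads from the codon-optimised transgene need not be counted for TST. The 5 hepatocyte or hepatoma markers (AFP, HNF4A, APOA2, FGB, AHSG) summed to 5968 to 7543 CPM over all libraries, although AFP and FGB rose by 0.49 and 0.44 on the log2 scale and AHSG fell by 0.17 in shTST, and APOA2 rose by 0.23 and HNF4A fell by 0.15 in overTST. The 3 white blood cell markers summed to at most 2.5 CPM, with PTPRC and CD3E listed at 0 in 11 libraries each. The 3 endothelial markers (PECAM1, VWF, CDH5) summed to 2.51 to 3.29 CPM in WT, 1.81 to 2.16 in shTST and 3.40 to 3.91 in overTST, where PECAM1 rose by 0.60 and CDH5, under 1 CPM in every library, fell by 1.31. The 3 fibroblast markers summed to 21.5 to 25.2, 17.0 to 19.4 and 15.9 to 17.9 CPM, nearly all of it PDGFRB, whereas COL1A2 stayed under 0.1 CPM. The mitochondrial share of counts was 10.8% to 11.7% in overTST, 6.84% to 8.65% in shTST and 6.91%, 9.42%, 6.95% and 11.98% in WT. WT replicates 2 and 4 stood above replicates 1 and 3 in this share, and the chi-square per gene was 16.01 to 35.3 for the WT pairs that include either of them and 5.87 for replicates 1 and 3. The part of these differences in the results was not tested, other than by leaving out WT replicates 2 and 4. In bulk RNA, fewer cells of a type and less RNA per cell cannot be told apart. In overTST against WT the median log2 fold change of all genes also fell with exonic length, from 0.19 in genes of up to 2 kb to -0.16 in genes over 8 kb, against 0.043 and -0.020 in shTST.

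The stretches of DNA before the gene start are shown for 3 genes, chosen with their values known, because SREBPs act together with NF-Y at such stretches. They comprise HMGCS1 and MSMO1, the members with the highest log2 fold changes in shTST, and SREBF2, which encodes a master regulator of the pathway. They were taken from the 250 bases before a RefSeq start on GRCh38.p14, each trimmed to the bases that lie before the gene as it was counted. They are written on the strand of the gene, 5′ to 3′. HMGCS1 is shown for chr5:43313513-43313662 on the minus strand, MSMO1 for chr4:165327419-165327622 on the plus strand and SREBF2 for chr22:41832855-41833078 on the plus strand. Capitals mark the NF-Y box CCAAT, or ATTGG where it lies on the other strand, and the sterol regulatory element, searched as TCACNCCAC on both strands.
HMGCS1: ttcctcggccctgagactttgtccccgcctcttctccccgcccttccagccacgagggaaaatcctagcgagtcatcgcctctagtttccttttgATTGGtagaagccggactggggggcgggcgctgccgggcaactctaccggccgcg
MSMO1: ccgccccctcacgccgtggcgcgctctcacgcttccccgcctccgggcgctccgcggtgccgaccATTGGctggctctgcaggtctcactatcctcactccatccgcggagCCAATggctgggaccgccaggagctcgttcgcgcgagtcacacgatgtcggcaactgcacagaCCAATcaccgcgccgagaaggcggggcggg
SREBF2: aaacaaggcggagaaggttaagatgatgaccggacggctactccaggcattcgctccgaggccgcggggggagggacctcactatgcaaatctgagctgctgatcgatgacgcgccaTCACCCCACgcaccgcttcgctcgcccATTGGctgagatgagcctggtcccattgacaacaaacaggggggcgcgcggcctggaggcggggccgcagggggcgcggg
The printed HMGCS1 stretch held 1 CCAAT box, at -155 from the start. The MSMO1 stretch held 3, at -185, -139 and -76. In SREBF2 a sterol regulatory element at -133 stood ahead of a CCAAT box at -106. RefSeq windows were available for 27 of the 31 genes. Over 250 bases before to 50 after the start, 20 of these 27 genes (74.1%) held a CCAAT box in at least 1 window, against 39.7% of 27305 genes. The TCACNCCAC letters were found in 1 of the 27, SREBF2, against 1.39% of all genes. No CCAAT box lay in the windows of CYP51A1, INSIG2, LBR, NR1H2, PMVK, SCAP and SREBF1. These matches describe letters only. The motifs marked in the 3 printed stretches do not overlap each other, whereas CCAAT matches on opposite strands overlapped in windows of IDI1 and NSDHL.

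Scaled by exonic length (RPKM), the levels of the pathway in WT spanned more than 2 orders of magnitude among the 30 genes that could be tested. Squalene synthase FDFT1 stood highest at 110.2 ± 6.49 RPKM (SD, n = 4), followed by DHCR7, which performs a terminal sterol reduction, at 97.7 ± 5.40. FDPS and ACAT2 followed at 67.1 ± 4.03 and 65.4 ± 4.62, which is within their spread of each other, as were EBP at 52.5 ± 4.69, MVD at 50.3 ± 4.51 and SQLE at 49.7 ± 1.61. Among regulators SREBF2 was at 37.6 ± 1.33 RPKM, SCAP at 25.2 ± 1.28 and SREBF1 at 17.4 ± 0.961. The lowest were the sterol carrier gene STARD4 at 2.56 ± 0.109 and the ubiquitin ligase gene MYLIP at 0.705 ± 0.0920. CYP51A1, at 10.6 ± 0.436 RPKM, ranked low for a pathway enzyme, but 82.2% of its 4074 exonic bases are shared with other gene models, mostly with LRRD1 on the same strand, which was given 2 counts over all 12 libraries. ACAT2 likewise shares 52.3% of its exonic bases with neighbours on the opposite strand. Whether counting used strand is not given in the sources used here, so the level of ACAT2 is uncertain. The level of CYP51A1 is uncertain with or without strand, because LRRD1 lies on the same strand. Only 725 exonic bases of CYP51A1 are shared with no other gene model. Ratios between groups rest on the same bases in every library, which for CYP51A1 may be a small part of the gene.

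**Figure D1:**
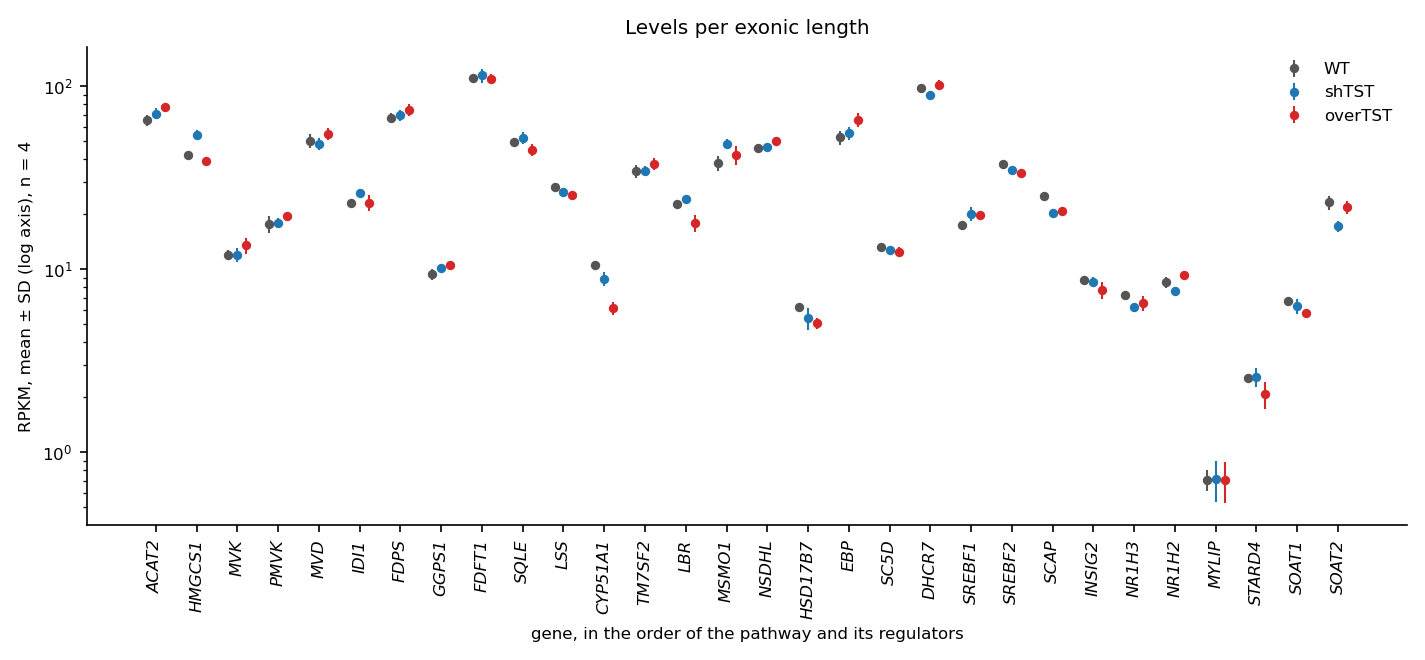
Mean level per exonic length (RPKM, log axis) of 30 cholesterol genes in WT, shTST and overTST, with bars for the SD over 4 libraries; INSIG1, at 0.00361 RPKM in WT, is not drawn. FDFT1 and DHCR7 stand highest and MYLIP lowest in each group, and the groups differ far less than the genes do.

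In shTST, 8 of 30 genes tested (26.7%) passed an adjusted p of 0.05 against WT in edgeR's quasi-likelihood test, where 16.1% of all genes tested did. HMGCS1, MSMO1, SREBF1 and IDI1 rose and SOAT2, SCAP, CYP51A1 and NR1H3 fell, 4 in each direction, where 6.69% of all genes rose and 9.40% fell. In overTST, 17 of 30 (56.7%) passed against WT, beside 33.9% of all genes. EBP, ACAT2, SREBF1, GGPS1, MVK, FDPS and NSDHL rose, and CYP51A1, LBR, STARD4, HSD17B7, SCAP, SOAT1, INSIG2, SREBF2, LSS and SQLE fell, which is 7 higher and 10 lower where 15.7% of all genes rose and 18.2% fell. The changes were small, between -0.43 and 0.37 on the log2 scale in shTST and between -0.79 and 0.32 in overTST. The median log2 fold change of the 30 genes was 0.011 in shTST and 0.0030 in overTST, beside 0.0040 and 0.0019 over all genes tested.

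Both comparisons use the same 4 WT libraries. CYP51A1 and SCAP fell and SREBF1 rose in both, 5 genes passed in shTST alone and 14 in overTST alone, and 0 genes passed in opposite directions. The share of all genes in each of these classes was not counted, so whether this split is particular to these genes was not tested. Neither list of unshared calls shows a difference between the lines, which was tested directly. There, 12 of 30 genes (40.0%) differed between shTST and overTST, beside 33.0% of all genes. CYP51A1, HMGCS1, LBR, STARD4, SQLE, MSMO1 and IDI1 were higher in shTST, and SOAT2, NR1H2, EBP, MVD and DHCR7 were lower, 7 and 5 genes where 16.9% and 16.1% of all genes were called. The split of calls in overTST moved with the scaling. It was 7 higher and 10 lower after TMM and 9 higher and 7 lower after upper-quartile scaling, and over all genes it went from 2265 higher and 2628 lower to 2700 higher and 2292 lower. With a correction for the length trend 4 rose and 7 fell, where 28.5% of all genes passed. The genes called higher in overTST had a median exonic length of 3809 bases and those called lower of 5470.5 bases. Leaving out overTST replicate 3 left 11 calls, 3 higher and 8 lower, beside 27.1% of all genes. Without WT replicates 2 and 4, a comparison added after seeing the data, 4 genes passed in shTST (HMGCS1, MSMO1, SCAP and SOAT2) where 6.15% of all genes did, and 8 passed in overTST where 20.8% did. The calls lost were IDI1 (0.15), CYP51A1 (-0.20), SREBF1 (0.19) and NR1H3 (-0.22) in shTST. In overTST they were MVK, FDPS, GGPS1, NSDHL and SREBF1 (0.10 to 0.16) and SQLE, SREBF2, INSIG2 and STARD4 (-0.27 to -0.13).

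**Figure D2:**
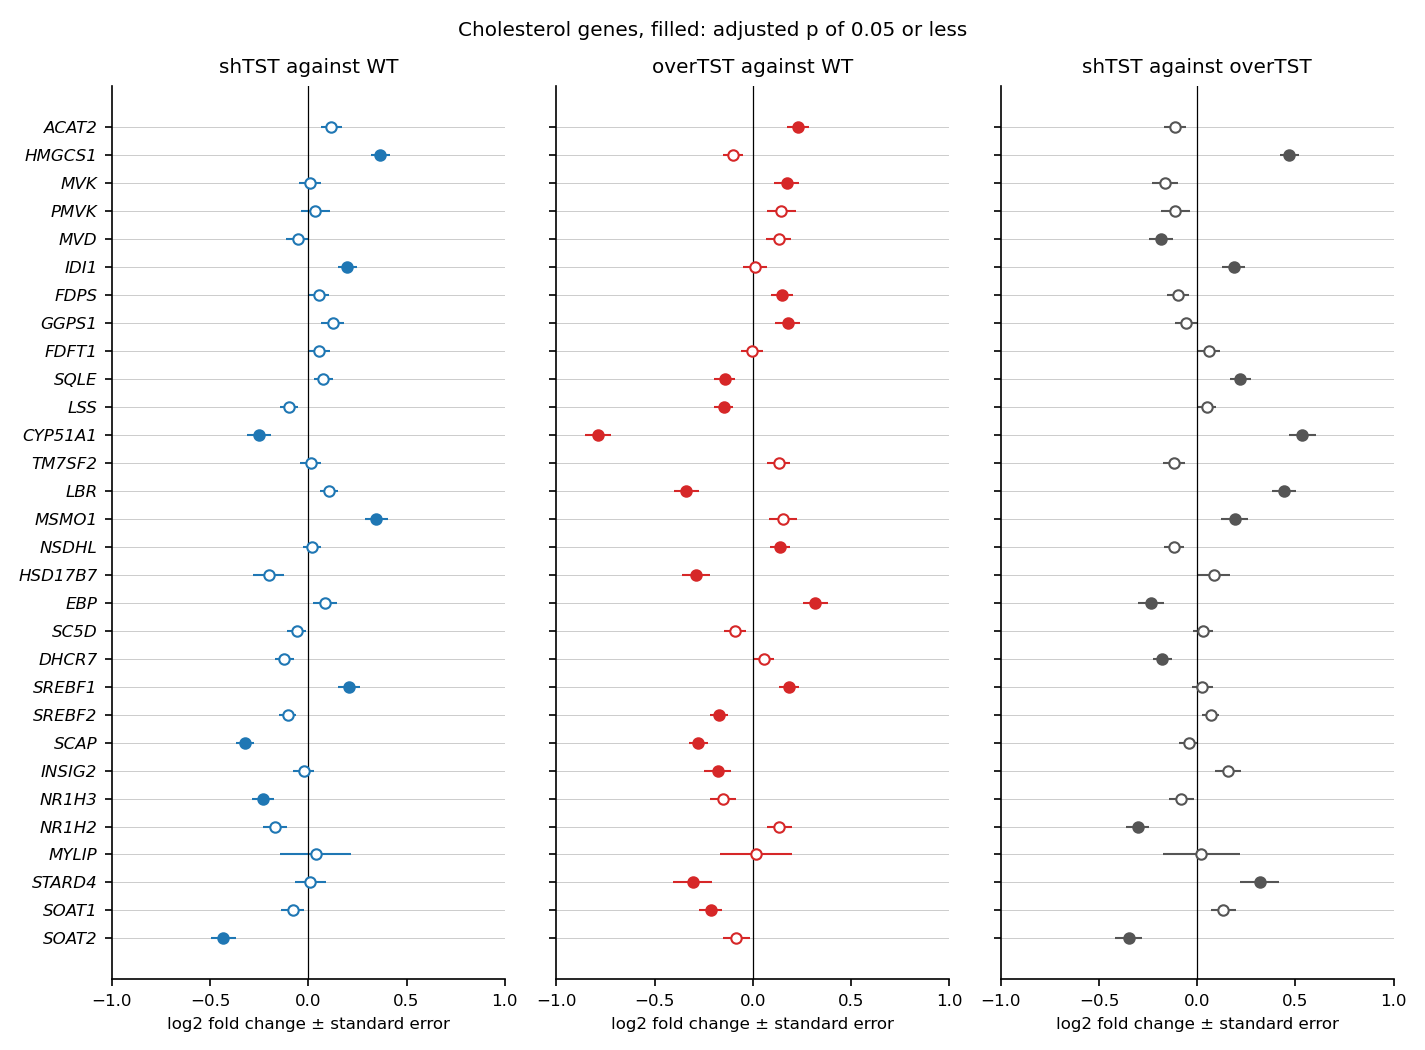
Log2 fold changes (points) with their standard errors (bars) of the 30 genes tested, for shTST against WT, overTST against WT and shTST against overTST, with filled points at an adjusted p of 0.05 or less. HMGCS1 and MSMO1 stand furthest right in shTST (0.37 and 0.35), and CYP51A1 stands furthest left in overTST (-0.79).

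In the mevalonate part, 2 of 8 genes rose in shTST, where 6.69% of all genes rose and 9.40% fell. In overTST 4 of 8 rose, where 15.7% of all genes rose and 18.2% fell. None of the 8 fell in either line, and whether this differs from the shares of all genes was not tested. The 2 that rose in shTST were HMGCS1 and IDI1, and the 4 in overTST were ACAT2, GGPS1, MVK and FDPS. HMGCS1 (ENSG00000112972, chr5:43289395-43313512), the cytosolic synthase that makes 3-hydroxy-3-methylglutaryl-CoA, was at 210.0, 192, 193 and 198 CPM in WT and at 270.1, 232, 259.7 and 261 CPM in shTST. In overTST it was at 194, 174, 184 and 187 CPM. All 4 shTST libraries lay above every WT and overTST library, whereas WT and overTST overlapped. Its log2 fold change was 0.37 ± 0.048 (SE) in shTST (adjusted p = 3.98e-05, edgeR quasi-likelihood) and -0.10 ± 0.050 in overTST (adjusted p = 0.119), where it passed without overTST replicate 1 (-0.13). Directly, shTST exceeded overTST by 0.47 ± 0.050 (adjusted p = 2.86e-07, edgeR).

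IDI1, the isomerase that makes the reactive isoprenoid building block, rose by 0.20 on the log2 scale in shTST, from 82.2 ± 4.11 to 94.2 ± 4.64 CPM (SD, n = 4) without overlap. It stood at 0.01 ± 0.062 in overTST. It was higher in shTST than in overTST by 0.19, a call lost without shTST replicate 1 (0.16) or overTST replicate 2 (0.12). ACAT2, the thiolase that starts the pathway, rose in overTST by 0.23, from 281 ± 19.9 to 329.7 ± 16.3 CPM without overlap. Its value in shTST was 0.12 and did not pass (adjusted p = 0.145, edgeR). MVK, the kinase of mevalonate, GGPS1 and FDPS, which extend isoprenoid chains, rose in overTST by 0.17, 0.18 and 0.15. These 3 calls lay close to the threshold, and each was lost on leaving out any 1 of several libraries. MVK lost its call without any 1 of WT replicates 1, 2 or 4 or overTST replicates 3 or 4 (log2 fold changes of 0.12 to 0.18). FDPS lost it without WT replicate 1 or 2 or overTST replicate 3 or 4 (0.10 to 0.15), and GGPS1 without WT replicate 2 or 3 or overTST replicate 3 (0.13 to 0.16). FDPS and GGPS1 also missed the threshold with the length correction (0.12 and 0.16). The kinase PMVK and the decarboxylase MVD stood at 0.15 and 0.13 in overTST without passing. PMVK passed there without WT replicate 3 (0.20), and MVD without WT replicate 3 or overTST replicate 1 (0.18 in either case). MVD was lower in shTST than in overTST by 0.18, a call lost without any 1 of shTST replicates 1, 2 or 4 or overTST replicates 2, 3 or 4 (-0.18 to -0.15).

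In the squalene and sterol part, 1 of 12 genes rose and 1 fell in shTST (16.7%), close to the 16.1% of all genes called. In overTST 2 rose and 5 fell (58.3%), where 33.9% of all genes were called. CYP51A1 (ENSG00000001630, chr7:92112151-92142952), which encodes the lanosterol demethylase, was at 41.4, 44.6, 41.7 and 44.6 CPM in WT. It was at 36.0, 32.3, 40.2 and 36.1 CPM in shTST and at 26.7, 26.4, 24.7 and 22 CPM in overTST. The 3 groups did not overlap, with overTST lowest and shTST between. The log2 fold change was -0.25 ± 0.061 in shTST (adjusted p = 0.00672, edgeR) and -0.79 ± 0.066 in overTST (adjusted p = 1.32e-08, edgeR). The lines differed by 0.53 ± 0.069 (adjusted p = 4.15e-06, edgeR). LSS, which cyclises the substrate chain into lanosterol just before CYP51A1 acts, fell in overTST by 0.15, from 204 ± 10.4 to 184 ± 5.06 CPM, a call lost without WT replicate 3 (-0.11) and with the length correction (-0.06).

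MSMO1 (ENSG00000052802, chr4:165327623-165343160) encodes the oxidase that removes the methyl groups at the fourth carbon of the sterol. It was at 113, 95.7, 118 and 112 CPM in WT, at 145, 133, 148 and 131 CPM in shTST and at 119, 103, 131 and 135 CPM in overTST. Every shTST library lay above every WT library, and overTST overlapped with both. It rose by 0.35 ± 0.057 in shTST (adjusted p = 0.000358, edgeR) and stood at 0.15 ± 0.071 in overTST (adjusted p = 0.0980, edgeR), where it passed without overTST replicate 2 (0.23). Its difference between the lines, 0.19 ± 0.069 (adjusted p = 0.0348, edgeR), was lost without any 1 of shTST replicates 1 or 3 or overTST replicates 1 or 2 (0.12 to 0.18). The later enzymes of the same demethylation diverged in overTST. HSD17B7 fell by 0.29, from 25.6 ± 1.34 to 21.0 ± 1.42 CPM without overlap, and NSDHL rose by 0.14, a call lost without any 1 of WT replicates 1, 2 or 4 or overTST replicates 2, 3 or 4 (0.11 to 0.15). With the length correction NSDHL was at -0.0029. HSD17B7 was at -0.20 in shTST and passed there without shTST replicate 3 (-0.29). Its pseudogene HSD17B7P2 had a median of 36 counts beside 626 for the gene.

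LBR (ENSG00000143815, chr1:225401502-225428925), a sterol reductase of the inner nuclear membrane that also binds lamin B, was at 123, 113, 121 and 118 CPM in WT. It was at 131, 127, 119 and 133 CPM in shTST and at 108, 95.5, 90.5 and 82.5 CPM in overTST. The overTST libraries lay below all others, and WT and shTST overlapped. LBR fell by 0.34 on the log2 scale in overTST (SE 0.062, adjusted p = 0.000187, edgeR) and stood at 0.10 ± 0.045 in shTST. The lines differed by 0.44 ± 0.059 (adjusted p = 6.24e-06, edgeR). TM7SF2, which encodes the other reductase for the same sterol step, had a log2 fold change of 0.13 in overTST and 0.01 in shTST, neither past the threshold. In overTST it passed without WT replicate 4 (0.17) or overTST replicate 1 (0.18).

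EBP (ENSG00000147155, chrX:48521158-48528716), the sterol isomerase also known as emopamil-binding protein, was at 123, 113, 139.5 and 131 CPM in WT. It was at 132, 123, 149 and 132 CPM in shTST and at 139, 162, 156 and 173 CPM in overTST. The overTST libraries were highest, with overlap at their lower end. EBP rose by 0.32 ± 0.064 in overTST (adjusted p = 0.000462, edgeR) and by 0.21 with the length correction. It was lower in shTST than in overTST by 0.23 ± 0.066 (adjusted p = 0.00740, edgeR), which became 0.14 and did not pass with the length correction.

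Squalene epoxidase SQLE, which oxidises squalene ahead of LSS, fell by 0.14 in overTST and stood at 0.08 in shTST. The call in overTST was lost without any 1 of WT replicates 1, 3 or 4 or overTST replicates 1, 2 or 3 (-0.16 to -0.10), whereas the difference of 0.22 between the lines (adjusted p = 0.00312, edgeR) was kept in all 22 alternatives. DHCR7 did not pass against WT in either line (-0.12 in shTST and 0.06 in overTST) but was lower in shTST than in overTST by 0.18 without overlap, at 373 ± 13.6 against 422 ± 26.5 CPM. FDFT1 and SC5D passed in none of the 3 comparisons, with log2 fold changes between -0.09 and 0.06.

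Among the SREBP control genes, SREBF1 rose and SCAP fell in both lines, and SREBF2 and INSIG2 also fell in overTST. SCAP (ENSG00000114650, chr3:47413694-47477126), the escort and sterol sensor of the SREBPs, was at 147, 165, 163 and 159 CPM in WT, at 120.0, 131, 125 and 132 CPM in shTST and at 132, 129.5, 127 and 136 CPM in overTST. All libraries of both lines lay below all WT libraries. SCAP fell by 0.32 on the log2 scale in shTST (SE 0.047, adjusted p = 9.55e-05, edgeR) and by 0.28 in overTST (SE 0.049, adjusted p = 0.000132, edgeR). The lines differed by -0.04 ± 0.047 (adjusted p = 0.514, edgeR).

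SREBF1 (ENSG00000072310, chr17:17810399-17837002), whose products lean towards fatty acid genes, was at 134, 136, 151 and 139 CPM in WT. It was at 155, 150.01, 183 and 158 CPM in shTST and at 152, 159, 158 and 167 CPM in overTST. The overTST libraries lay above WT, and the lowest shTST library fell just within WT. SREBF1 rose by 0.21 ± 0.055 in shTST (adjusted p = 0.0124, edgeR) and by 0.18 ± 0.051 in overTST (adjusted p = 0.00697, edgeR). Without shTST replicate 3 the rise in shTST was 0.15 with an adjusted p of 0.0520 (range over the alternatives 9.77e-05 to 0.0813, edgeR and the other tools). The gene shares 6.92% of its exonic bases with RAI1 on the opposite strand.

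SREBF2 (ENSG00000198911, chr22:41833079-41907308), whose product leans towards cholesterol genes, was at 271, 293, 282 and 290.4 CPM in WT. It was at 258, 255, 277 and 267 CPM in shTST and at 245, 254, 247 and 263 CPM in overTST. The overTST libraries lay below WT, and shTST overlapped with it. SREBF2 fell by 0.17 in overTST (SE 0.047, adjusted p = 0.00648, edgeR), which became -0.07 and did not pass with the length correction, and it stood at -0.10 ± 0.043 in shTST (adjusted p = 0.105, edgeR).

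INSIG2 (ENSG00000125629, chr2:118088452-118110997), the retention protein of SCAP, was at 35.1, 34.6, 33.5 and 34.3 CPM in WT and at 35.7, 32.1, 32.5 and 34.9 CPM in shTST. In overTST it was at 30.5, 26.0, 32.0 and 33.0 CPM, all below WT. It fell by 0.18 in overTST (SE 0.069, adjusted p = 0.0473, edgeR), a call lost without any 1 of WT replicates 1, 2 or 4 or overTST replicates 1, 2 or 3 (-0.21 to -0.11). In shTST it was at -0.02 ± 0.054. INSIG1 (ENSG00000186480, chr7:155297776-155310235), the other retention protein and a textbook SREBP target, was almost without counts. It had 1, 1, 0 and 0 counts in WT, 1, 0, 6 and 1 in shTST and 0 in each overTST library, and it did not pass the filter on low counts. The neighbouring transcript INSIG1-DT had 3 counts over all libraries. Whether these counts reflect INSIG1 transcript levels or how reads were assigned to the gene cannot be told from the count tables, and no comparison was made for INSIG1.

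Of the liver X receptor genes, NR1H3 fell by 0.23 in shTST, from 33.0 ± 0.554 to 28.1 ± 1.48 CPM without overlap, and stood at -0.15 in overTST, where it passed without overTST replicate 2 (-0.21). NR1H2 (ENSG00000131408, chr19:50329653-50382982), the widely expressed receptor, was at 30.3, 35.0, 32.4 and 30.1 CPM in WT, at 28.2, 27.8, 29.6 and 28.0 CPM in shTST and at 33.6, 35.0, 35.3 and 36.5 CPM in overTST. The shTST libraries lay below all others. NR1H2 missed the threshold against WT in both lines (-0.17 ± 0.060 with an adjusted p of 0.0550 and 0.13 ± 0.064 with 0.109, edgeR), while the lines differed by -0.30 ± 0.060 (adjusted p = 0.000370, edgeR). In shTST it passed in 6 of the alternatives, among them DESeq2 (-0.17), the length correction (-0.17) and the fit without WT replicate 1 (-0.20). In overTST it passed with upper-quartile scaling and without WT replicate 2 (0.18).

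STARD4 (ENSG00000164211, chr5:111496033-111512590), a carrier that moves cholesterol between membranes, was at 14.3, 15.5, 14.2 and 14.2 CPM in WT, at 16.3, 14.4, 15.6 and 12.4 CPM in shTST and at 12, 9.11, 14.0 and 11.9 CPM in overTST. The overTST libraries lay below WT, and shTST overlapped with both. It fell by 0.31 in overTST (SE 0.098, adjusted p = 0.0170, edgeR). That call was lost without overTST replicate 2 (-0.20) and with the length correction (-0.25). The difference of 0.32 between the lines was lost without shTST replicate 1 (0.26) or overTST replicate 2 (0.21). MYLIP, whose product marks lipoprotein receptors for degradation, was at 2.14 ± 0.279 CPM in WT and passed nowhere, with log2 fold changes of 0.04 ± 0.18 and 0.01 ± 0.18.

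The 2 sterol acyltransferases, which store cholesterol as esters, each passed in 1 line against WT. SOAT2 (ENSG00000167780, chr12:53103518-53124538), the form of hepatocytes and enterocytes, was at 43.5, 50.1, 44.4 and 51.8 CPM in WT, at 34.2, 33.5, 38.7 and 34.1 CPM in shTST and at 41.2, 42.7, 49.7 and 45.6 CPM in overTST. The shTST libraries lay below all others, and WT and overTST overlapped. SOAT2 fell by 0.43 in shTST (SE 0.064, adjusted p = 0.000106, edgeR) and stood at -0.08 ± 0.068 in overTST. The lines differed by -0.35 ± 0.068 (adjusted p = 0.000352, edgeR). With the length correction SOAT2 passed in overTST as well, at -0.22, and the difference between the lines was -0.23. SOAT1, the widely expressed form, fell by 0.21 in overTST, from 46.7 ± 1.45 to 40.2 ± 1.95 CPM, and did not pass with the length correction (-0.13). Its value in shTST was -0.08. Between the lines SOAT1 stood at 0.13 and missed the threshold (adjusted p = 0.101, edgeR), and it passed without shTST replicate 3 (0.19).

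Other genes of sterol biology were counted in the same fits, and their values with the length correction are not given here. Of 7 genes for SREBP activation and sterol sensing, 1 fell in shTST and 5 in overTST, and none rose. These calls were 14.3% and 71.4% of the list, beside 16.1% and 33.9% of all genes called in either direction. MBTPS2 and MBTPS1, which encode the Golgi proteases that release SREBPs, fell by 0.58 and 0.30 in overTST. MBTPS2 fell by 0.30 in shTST. Of 9 genes tested for sterol transport and export, 1 rose and 3 fell in shTST (44.4%), and 1 rose and 4 fell in overTST (55.6%), beside the same shares of all genes. NPC1, which exports cholesterol from lysosomes, fell by 0.50 in shTST and by 0.56 in overTST, while its partner NPC2 rose by 0.31 in overTST. The cholesterol exporter ABCA1 fell by 0.42 in overTST, and GRAMD1A fell by 0.36 in shTST. GRAMD1B rose by 1.60 in shTST but was low throughout, at 0.308 to 0.491 CPM in WT and 1.23 to 1.47 CPM in shTST.

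Of 10 SREBP-driven fatty acid genes, 2 rose and 1 fell in shTST (30.0%, beside 16.1% of all genes called). In overTST 4 fell and none rose (40.0%, beside 33.9% of all genes called). GPAM and FADS1 rose by 0.22 and 0.17 and fatty acid synthase FASN fell by 0.21 in shTST, whereas ACACA and FASN fell by 0.40 and 0.29 in overTST. Of 9 genes on the non-sterol branches of the mevalonate pathway, DHDDS fell by 0.16 in shTST, and PDSS2 and NUS1 fell by 0.30 and 0.21 in overTST. These calls were 11.1% and 22.2% of that list, below the 16.1% and 33.9% of all genes. Of 6 oxysterol and bile acid enzymes 2 had enough counts to be tested, and neither passed against WT (CYP27A1 at 0.03 in shTST and 0.06 in overTST, CYP7A1 at 0.83 and -0.61). CYP7A1, the rate-limiting enzyme of bile acid synthesis, was higher in shTST than in overTST by 1.43 at levels between 0.197 and 1.01 CPM.

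Most pairs of synthesis enzymes also varied in the same direction between replicates of the same group. Relative to the group mean, 19 of the 20 enzymes were lower in WT replicate 2 and 19 of 20 in shTST replicate 2. In WT replicate 3, shTST replicate 3 and overTST replicate 4, 16 of 20 were higher. The median deviation was -0.070 and -0.096 on the log2 scale in replicate 2 of WT and of shTST and 0.087, 0.091 and 0.072 in the other 3. Single enzymes deviated by up to -0.23 (MSMO1 in overTST replicate 2) and 0.25 (HSD17B7 in shTST replicate 3) on this scale. Over the 12 libraries, the median correlation of these deviations was 0.338 for the 190 pairs of enzymes, with 76.3% of pairs above 0. For all pairs among 8672 genes over 10 CPM the median was 0.0960, with 58.8% above 0. That background was scaled by total counts without TMM, unlike the enzymes, so the 2 medians are not strictly comparable. The closest pair was FDPS with EBP (r = 0.937), then TM7SF2 with EBP (r = 0.934) and FDPS with TM7SF2 (r = 0.928). Other pairs ran in opposite directions, furthest for LBR with DHCR7 (r = -0.694), MVK (r = -0.659) and MVD (r = -0.628). GGPS1 with MVD was also negative (r = -0.508). These are descriptions over 12 libraries that share depth and preparation within a library. The summed level of the 20 enzymes was 3100 to 3435 CPM in WT, 3182 to 3640 in shTST and 3222 to 3573 in overTST, and these ranges overlapped.

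**Figure D3:**
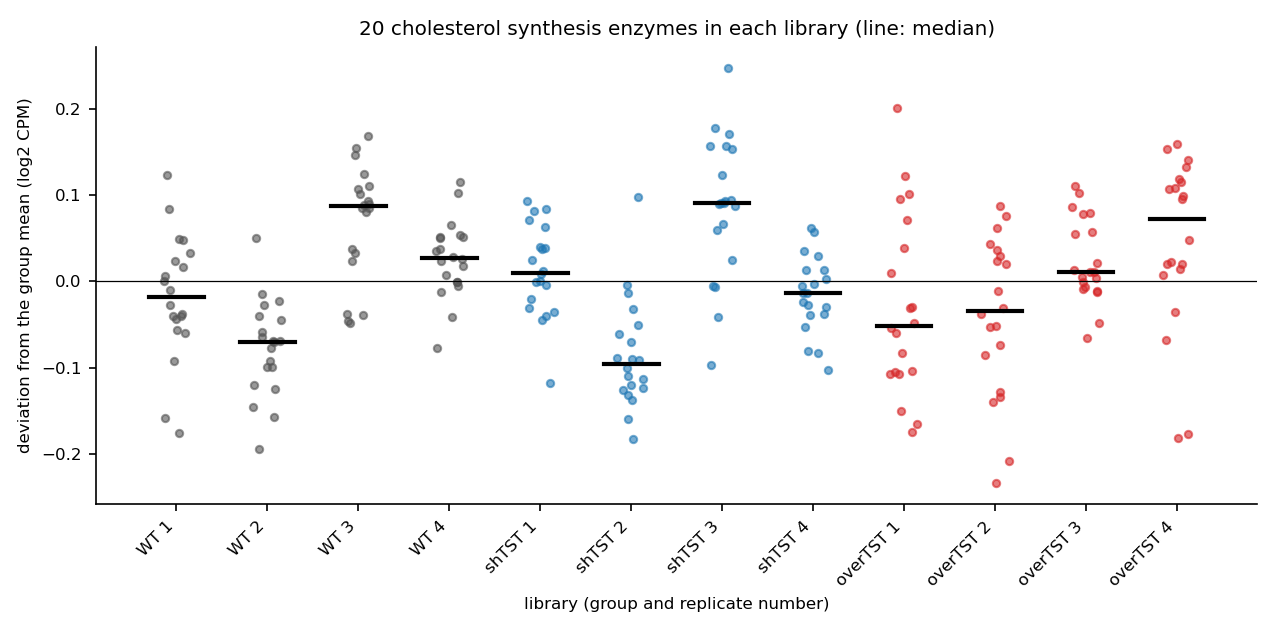
Deviation of each of 20 cholesterol synthesis enzymes from its group mean (log2 CPM) in each library, with a line at the median of the library. WT replicate 2 and shTST replicate 2 sit below 0 (medians of -0.070 and -0.096), and WT replicate 3 and shTST replicate 3 sit above it (0.087 and 0.091).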

How the data were processed

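Total RNA of 12 HepG2 libraries (4 each of WT, shTST and overTST) was sequenced by a service provider. The authors deposited 1 table per library with raw, whole-number read counts per Ensembl gene and its exons, made per the labels with Trimmomatic 0.36, STAR 2.5.2b and featureCounts (Subread 1.5.2) on GRCh38, and the annotation release and use of strand are not given in the sources used here. Gene symbols came from a name table and matched all 31 genes. Low counts were removed with filterByExpr, libraries were scaled by TMM, and each comparison was tested across all genes with edgeR 4.0.16 (quasi-likelihood) in R 4.3.3 and Benjamini-Hochberg adjustment. Each line was compared with WT in its own 8 libraries, and the lines with each other in 1 fit of all 12. A call is an adjusted p of 0.05 or less, and standard errors were obtained from each fold change and its F statistic. CPM and RPKM used the TMM scaling and the exonic length in the deposited count tables.

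Libraries held between 22911380 and 45120508 counts, and with 4 replicates the biological coefficient of variation was 5.85% to 6.41%. On simulated counts, edgeR recovered 96%, 94% and 94% of changes of 0.5 on the log2 scale in shTST against WT, overTST against WT and shTST against overTST (14618, 14448 and 14796 genes). Changes under 0.5 were not simulated, so recovery at the size of most changes reported here was not tested. The simulation gave all genes the same spread and changed only genes above a minimum count. Recovery with the uneven spread of the real libraries, or for genes with few counts, was therefore not tested either. No pair of replicates agreed within sampling noise (18 pairs, chi-square per gene of 3.58 to 35.3). The genes and lists were chosen with earlier results of these data known. Values in every library are given for genes with a call and an absolute log2 fold change of 0.3 or more in at least 1 comparison, and for SREBF1, SREBF2, SCAP, INSIG1 and INSIG2. From each other list at most the 2 highest and 2 lowest calls are named, and 1 gene of the SREBP activation list is not reported here. Promoter windows came from RefSeq (GRCh38.p14). Alternatives were DESeq2 1.42.0, limma-voom 3.58.1, RLE and upper-quartile scaling, other filters, a length correction (lowess with a span of 0.3), the replicate number as a block, other libraries in the fit, and leaving out each library or, chosen after seeing the data, WT replicates 2 and 4 together.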

Additional observations from a re-analysis of the deposited data

Results flagged for a closer look

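Of 92 combinations of a gene and a group, 5 held a library whose gap to its nearest neighbour exceeded Dixon's critical value for 4 samples, where chance gives about 1 in 20. LSS was highest in WT replicate 3 at 219.6 CPM, beside 200.05 for the next library, and lowest in overTST replicate 1 at 176.6 CPM, beside 185.8. DHCR7 stood at 439.7 CPM in WT replicate 4, beside 398.2. STARD4 was at 15.5 CPM in WT replicate 2, beside 14.3. SOAT2 was at 38.7 CPM in shTST replicate 3, beside 34.2, and this library was nearest to WT in a group that lay below WT as a whole.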

How the results depend on the processing

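The number of calls ranged from 8 to 9 in shTST, from 11 to 18 in overTST and from 8 to 14 between the lines when each library was left out in turn, where 10.2% to 15.7%, 27.1% to 35.9% and 26.4% to 34.9% of all genes passed. It was 11 in overTST without overTST replicate 3 and 8 between the lines without shTST replicate 1, where 27.0% of all genes passed. In overTST the length correction left 11 calls. Without WT replicates 2 and 4 together, chosen after seeing the data, 4 calls were left in shTST and 8 in overTST, with fewer samples in the fit. All 19 alternatives kept 4 of the 8 calls in shTST (HMGCS1, MSMO1, SCAP, SOAT2) and 6 of the 17 in overTST (ACAT2, CYP51A1, LBR, HSD17B7, EBP, SCAP). All 22 kept 7 of the 12 between the lines (HMGCS1, SQLE, CYP51A1, LBR, DHCR7, NR1H2, SOAT2). The sole call to change sign was NSDHL in overTST, at -0.0029 with the length correction and -0.0031 with the block and the length correction, and the cause was not tested. Between the lines, MVK passed without WT replicate 3, shTST replicate 3 or overTST replicate 1 or 2 (-0.23 to -0.16), TM7SF2 without overTST replicate 1 (-0.17), NSDHL without shTST replicate 3 or overTST replicate 1 (-0.15 in either case) and INSIG2 without overTST replicate 4 (0.20).

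Whether the replicate numbers pair the samples was not settled. Correlations of deviations between samples with the same number lay between -0.053 and 0.080 (12 pairs). Between samples of different groups with other numbers they lay between -0.106 and 0.078 (36 pairs), so the ranges overlapped. With the number as a block, 12 genes passed in shTST, 20 in overTST and 16 between the lines (20.4%, 35.8% and 35.2% of all genes), and with the block and the length correction 13, 15 and 16 (21.4%, 30.6% and 30.1%). Changes under 0.2 on the log2 scale made up most of the calls gained or lost.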
